A study of Mus musculus with 3 samples.

Results

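Wnt receptors, secreted Wnt inhibitors and a nuclear cofactor were measured in cells of the mouse mitral valve, for which 8 genes had been named: the secreted inhibitors Frzb and Sfrp2, the receptors Fzd5 and Fzd7, the R-spondin receptors Lgr4 and Lgr6, the LDL receptor family member Lrp4 and the β-catenin cofactor Bcl9. Of these, 7 have a row in the matrix of 3264 genes that was used, and Lgr6 was not analysed here. The 3 samples listed with the matrix are mitral valves of mice titled B6.129-Fbn1tm2Rmz/J with the library names mgR/mgR, which were 12 weeks old according to the methods of the study. The mgR allele is a hypomorphic allele of fibrillin-1 that is constitutive, not restricted to a cell type. The libraries were made with the 10x Genomics 3′ v3 kit, which tags each captured transcript with a barcode of its cell and an identifier of the molecule (UMI). The matrix holds 16383 barcodes, called cells here, with 503 to 23127 UMIs each and a median of 5349. No barcode carries a mark of mouse, genotype or library, so it cannot be told whether all come from these 3 mice, no genotypes were compared and all cells count as 1 sample.

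The level of a gene in a group is its UMIs there per 10000 UMIs of any gene, with all cells of the group added together, and is given with its 95% exact Poisson interval. Intervals, for ratios of levels and for shares of cells as well, cover counting error only and not the spread between mice. For levels and their ratios they also leave out the spread between cells, so they are narrow. With 1 sample there was no test. A gene is called past 2-fold where the ratio of 2 levels is at least 2 or at most the inverse of 2. The barcodes stand in 2 alphabetical runs, 14222 cells with a median of 5154 UMIs and 2161 cells with a median of 6918, which share 11 barcodes. What the runs are is not given in the sources used here, and values of each run are given beside the results. Levels are compared between groups of cells for 1 gene at a time, not between genes.

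Wnt ligands bind a Frizzled receptor together with an LRP coreceptor, which spares β-catenin from degradation, and in the nucleus β-catenin acts with TCF/LEF factors and with cofactors such as Bcl9. Secreted Frizzled-related proteins, to which Frzb and Sfrp2 belong, carry a domain like that of the receptors and bind Wnt proteins outside the cell, while R-spondins act through Lgr receptors to keep Frizzled receptors at the cell surface. In the heart, Wnt signalling takes part in the formation of the endocardial cushions from which the valve leaflets arise.

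Of the 7 genes, 6 had an entry among the RefSeq promoter sequences (GRCm38.p6), and Lrp4 had none. The 250 bases before the start of each were searched for the core of the TCF/LEF motif, CTTTGA, on both strands (TCAAAG on the other). Frzb had 1 match, 95 bases before its RefSeq start, and Sfrp2, Fzd5, Fzd7, Lgr4 and Bcl9 had 0. Over 27025 promoters, 14.05% held a match, so 1 match among 6 genes is near what promoters in general hold. The 2 secreted inhibitors are shown because they had the largest ratios of fibroblasts to endothelial cells among the 7 genes. For Frzb, on the minus strand, 30 bases around the match are given (chr2:80447474-80447503, capitals mark the match), which lie within the Frzb gene of GENCODE M21, whose start there is at 80447625. For Sfrp2, the 250 bases before the start on the plus strand are given (chr3:83766071-83766320), which hold no match.
Frzb: tcccctgaaaacTCAAAGccttctcggaag
Sfrp2: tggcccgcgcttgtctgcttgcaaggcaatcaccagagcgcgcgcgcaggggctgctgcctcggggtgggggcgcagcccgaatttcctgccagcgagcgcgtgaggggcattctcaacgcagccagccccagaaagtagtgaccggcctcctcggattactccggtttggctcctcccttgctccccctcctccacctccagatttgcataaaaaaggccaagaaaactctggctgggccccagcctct

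Groups were set from the UMIs of single cells. Fibroblasts were the 3149 cells (19.2% of all) with UMIs of at least 2 of Prrx1, Col3a1 and Dpt and none of Egfl7. Endothelial cells were the 8966 cells (54.7%) with Egfl7 and fewer than 2 of those genes. Ptprc cells were the 470 cells (2.87%) with Ptprc, which encodes the leukocyte antigen CD45, and neither of these marks. Another 421 cells had fibroblast genes and Egfl7 together, with a median of 8709 UMIs, and 3377 fell in no group. Median depths were 6063 UMIs in fibroblasts, 5365.5 in endothelial cells and 4851 in Ptprc cells, and 8.70%, 15.2% and 26.0% of these cells came from the second barcode run. In the same order, Fbn1, the gene of fibrillin-1, was at 5.16, 2.18 and 0.453 in the first run. In the second run it was lower, at 2.04, 1.45 and 0.173. Whether the runs differ in genotype cannot be told from the barcodes and was not tested. The labels of the groups were checked against markers that the rule did not use. All 7 such fibroblast genes, all 10 endothelial genes and all 5 leukocyte genes had their highest level in the group they mark. The summed level of these 7 fibroblast genes was 28.7 UMIs per 10000 in fibroblasts, 9.57 in endothelial cells and 2.44 in Ptprc cells. That of the 10 endothelial genes was 1.63, 8.34 and 1.13 in the same order, and that of the 5 leukocyte genes was 0.281, 0.265 and 22.2. Marker lists for other cell types were summed as well, with fibroblasts, endothelial cells and Ptprc cells in this order. The T cell gene was at 0.0139, 0.0277 and 0.441, the melanocyte gene Mlph at 0.263, 0.0426 and 0.0741, and the mural gene Rgs5 at 0.0985, 0.00205 and 0.00823. The cardiomyocyte genes Tnnt2 and Ttn together were at 0.103, 1.10 and 0.231. Only Ttn was higher in endothelial cells, at 0.0651, 1.07 and 0.214, while Tnnt2 was at 0.0383, 0.0327 and 0.0165. The Schwann cell gene Cdh19 was at 0.846, 0.0288 and 0.0535, and the 5 genes of dividing cells at 0.0550, 0.182 and 0.733. Their part in the results was not tested.

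Against endothelial cells, 4 of the 7 listed genes were past 2-fold, all of them higher in fibroblasts: Frzb, Sfrp2, Lrp4 and Lgr4. Over all 2605 genes with 50 or more UMIs in the 2 groups, 33.5% were past 2-fold in either direction. The median ratio of fibroblasts to endothelial cells was 2.10 over the 7 genes and 1.04 over all genes. Against Ptprc cells, the same 4 of 7 were past 2-fold and higher in fibroblasts, beside 41.3% of 2313 genes, with median ratios of 3.398 and 1.03. By barcode run, Fzd7 was past 2-fold as well in the first (2.06, against 0.955 in the second) and Bcl9 in the second (2.43, against 1.06 in the first). Of endothelial cells against Ptprc cells, 3 of 7 were past 2-fold, with Lgr4 higher and Frzb and Sfrp2 lower in endothelial cells, beside 39.2% of 2476 genes. Sfrp2 had 31 UMIs in endothelial cells and 8 in Ptprc cells, and is below the minimum of 50 that the other genes had to meet. These 3 comparisons share their groups, so they are not independent of each other.

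**Figure D1:**
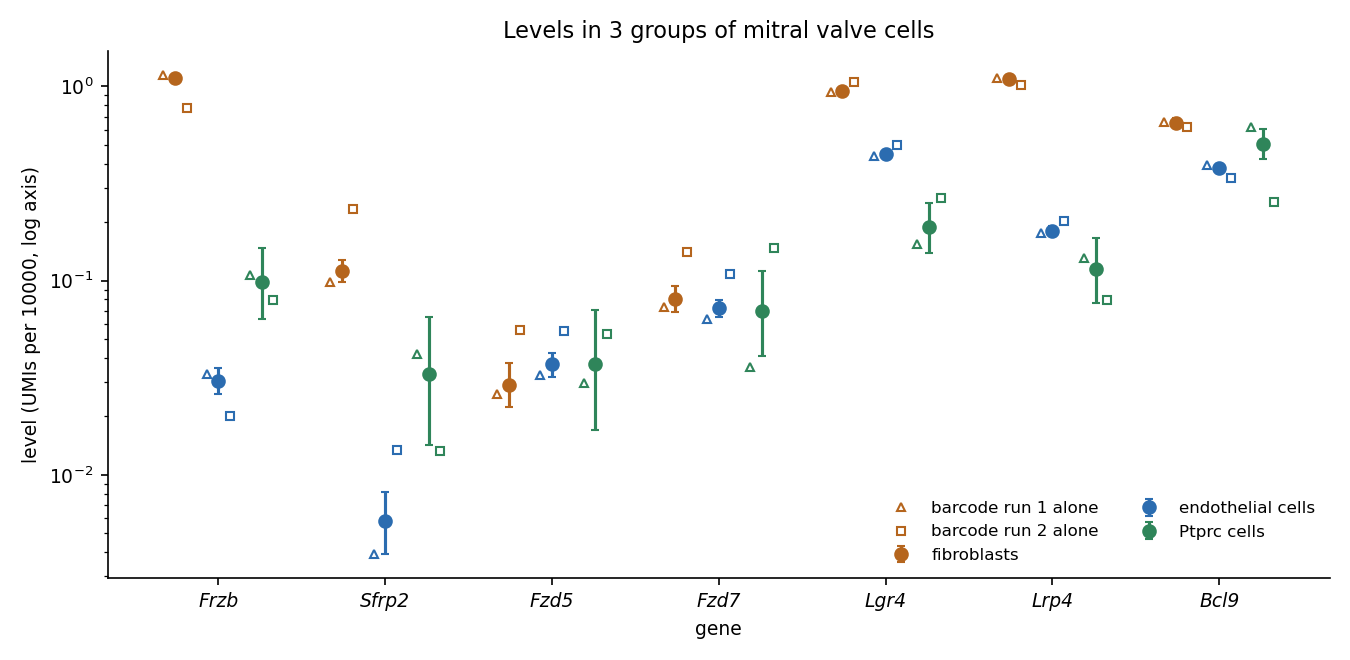
Levels of the 7 genes (UMIs per 10000, log axis) in fibroblasts, endothelial cells and Ptprc cells. Filled circles are all cells with 95% exact Poisson intervals, open triangles and squares are the first and second barcode run alone. Frzb, Sfrp2, Lgr4 and Lrp4 are highest in fibroblasts in both runs, while Fzd5 and Fzd7 have overlapping intervals in the 3 groups.

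Frzb, also known as sFRP3, was at 1.10 UMIs per 10000 (1.06 to 1.15, from 2308 UMIs) in fibroblasts, 0.0988 (0.0633 to 0.147, from 24 UMIs) in Ptprc cells and 0.0305 (0.0260 to 0.0355, from 164 UMIs) in endothelial cells. None of these intervals overlapped. The level in fibroblasts was 36.2 times that in endothelial cells (30.9 to 42.7) and 11.2 times that in Ptprc cells (7.49 to 17.5). Within the first barcode run the levels were 1.14, 0.107 and 0.0330 in the same order, and within the second they were 0.779, 0.0799 and 0.0202. The order of the groups was thus the same in both runs, and the ratio of fibroblasts to endothelial cells was 34.6 and 38.6. With each cell thinned to 2000 UMIs, a Frzb UMI was found in 16.6% of 3057 fibroblasts (95% exact binomial interval 15.3 to 17.9), 2.64% of 416 Ptprc cells (1.33 to 4.68) and 0.583% of 8403 endothelial cells (0.432 to 0.770). Without thinning, these shares were 33.4%, 3.19% and 1.27%. With the runs pooled, Prg4, which fibroblasts held at 13.5, was also higher in Ptprc cells (1.24) than in endothelial cells (0.318). That order held in the first run (1.76 against 0.363) and turned in the second (0.0533, from 4 UMIs, against 0.129). The part of free RNA in the low Frzb levels of both groups was not tested.

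Sfrp2 was found in fewer cells. It was at 0.112 UMIs per 10000 (0.0980 to 0.127, from 234 UMIs) in fibroblasts, 0.0329 (0.0142 to 0.0649, from 8 UMIs) in Ptprc cells and 0.00576 (0.00392 to 0.00818, from 31 UMIs) in endothelial cells. Fibroblasts stood apart from both other groups, with ratios of 19.4 (13.3 to 29.2) against endothelial cells and 3.398 (1.70 to 7.96) against Ptprc cells. The latter was 2.35 in the first barcode run and 17.5 in the second, from 7 and 1 UMIs in Ptprc cells, and it missed 2-fold in cells of 4000 to 8000 UMIs (1.86) and with a pseudocount of 0.05 (1.95). The level in fibroblasts differed between the barcode runs, at 0.0981 in the first and 0.233 in the second, and in endothelial cells it was 0.00391 and 0.0135. The ratio of fibroblasts to endothelial cells was 25.0 in the first run and 17.3 in the second. At 2000 UMIs per cell, Sfrp2 was found in 1.70% of fibroblasts (1.27 to 2.22), 0.481% of Ptprc cells (0.0583 to 1.73, 2 cells) and 0.107% of endothelial cells (0.0490 to 0.203), against 4.35%, 0.851% and 0.234% without thinning.

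An antisense gene, Gm26771, overlaps Sfrp2 (3:83766321-83774316 on the plus strand of GRCm38) and has its own row in the matrix. Its level was 0.0689 (0.0581 to 0.0811) in fibroblasts and 0.00167 (0.000765 to 0.00318) in endothelial cells. Whether reads were counted by strand is not given in the sources used here, so the division of reads between Sfrp2 and Gm26771 is uncertain. Frzb (2:80411970-80447625, minus strand) overlaps no other annotated gene.

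The Frizzled receptors Fzd5 and Fzd7 did not follow the inhibitors. Fzd7, which binds several Wnt proteins, was at 0.0804 UMIs per 10000 (0.0687 to 0.0935) in fibroblasts, 0.0723 (0.0653 to 0.0799) in endothelial cells and 0.070 (0.0408 to 0.112) in Ptprc cells. The ratio of fibroblasts to endothelial cells was 1.11, and its interval of 0.922 to 1.33 spans 1.

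Fzd5 was at 0.0292 (0.0223 to 0.0375) in fibroblasts, 0.0370 (0.0320 to 0.0425) in endothelial cells and 0.0371 (0.0169 to 0.0703) in Ptprc cells, from 61, 199 and 9 UMIs. The fibroblast level was 0.789 times the endothelial one (0.582 to 1.06). Neighbours in the order of levels had overlapping intervals for both receptors. Both were higher in the second barcode run in every group: Fzd7 was at 0.0736 and 0.140 in fibroblasts and at 0.0636 and 0.109 in endothelial cells, and Fzd5 at 0.0261 and 0.0560 in fibroblasts and at 0.0327 and 0.0548 in endothelial cells. Fzd7 (1:59482424-59486955, plus strand) overlaps no other gene, while Fzd5 (1:64730558-64737751, minus strand) overlaps Gm38058, which has no row among the genes used here.

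Lgr4, a receptor for R-spondins, was at 0.945 UMIs per 10000 (0.904 to 0.988) in fibroblasts, 0.451 (0.433 to 0.469) in endothelial cells and 0.189 (0.139 to 0.253) in Ptprc cells, with no overlap of intervals. The ratio of fibroblasts to endothelial cells was 2.10 (1.97 to 2.23), close to the threshold, and it was 2.12 in the first barcode run and 2.11 in the second. Against Ptprc cells the ratio was 4.99 (3.73 to 6.84) for fibroblasts and 2.38 (1.78 to 3.26) for endothelial cells, and the latter was 2.83 in the first run and 1.88 in the second. At 2000 UMIs, Lgr4 was found in 13.5% of fibroblasts, 6.96% of endothelial cells and 2.64% of Ptprc cells, against 28.5%, 14.7% and 6.60% without thinning. The gene lies at 2:109917647-110014257 on the plus strand.

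Lrp4, a relative of the Wnt coreceptors of the LRP family that binds agrin and sclerostin, was at 1.09 UMIs per 10000 (1.05 to 1.14) in fibroblasts, 0.181 (0.169 to 0.192) in endothelial cells and 0.115 (0.0766 to 0.167) in Ptprc cells. Fibroblasts were 6.06 times endothelial cells (5.62 to 6.54) and 9.49 times Ptprc cells (6.55 to 14.3). The endothelial interval lay just above that of Ptprc cells, with a ratio of 1.57 (1.08 to 2.37) that was 1.34 in the first run and 2.53 in the second. This order turned with the choice of leukocytes, since the ratio was 0.824 with every cell with a UMI of Ptprc and 0.734 with groups of clusters. The ratio of fibroblasts to endothelial cells was 6.29 and 5.04 in the 2 runs. Thinned shares were 16.4% of fibroblasts, 3.55% of endothelial cells and 1.68% of Ptprc cells, against 32.7%, 7.72% and 5.11% without thinning. Lrp4 lies at 2:91457511-91513779 on the plus strand.

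Bcl9, which links β-catenin to the Pygopus proteins, differed less between groups. Its level was 0.652 (0.618 to 0.687) in fibroblasts, 0.506 (0.421 to 0.604) in Ptprc cells and 0.382 (0.365 to 0.398) in endothelial cells. The ratio of fibroblasts to endothelial cells was 1.71 (1.59 to 1.83), below the threshold in the whole matrix and in both runs (1.67 and 1.83). The level in Ptprc cells was 0.620 in the first run, above endothelial cells at 0.392, and 0.253 in the second, below endothelial cells at 0.336, so the order of these 2 groups turned with the run. Within Ptprc cells it was at 0.595 in the 303 cells with a UMI of the macrophage gene Mrc1 and 0.301 in the 167 without, from 101 and 22 UMIs, a ratio of 1.98 (1.24 to 3.30). Bcl9 (3:97203662-97297917, minus strand) overlaps Gm42508 and Gm43073, which have no row among the genes used.

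Fibroblasts were then split by a UMI of Scn7a, which encodes a sodium channel protein and was found in 791 fibroblasts, and by a UMI of Prg4, which encodes lubricin and was found in 1939. A cell without a UMI may still express the gene. Median depths were 6527 and 5900 UMIs with and without Scn7a, and 6331 and 5684.5 with and without Prg4. Scn7a was at 0.0171 in endothelial cells and 0.0782 in Ptprc cells, against 1.43 in all fibroblasts.

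Of the 7 genes, only Sfrp2 was past 2-fold in either split of fibroblasts, beside 8.67% of 2191 genes for Scn7a and 5.61% of 2191 genes for Prg4. Sfrp2 was at 0.262 (0.221 to 0.308) with Scn7a and 0.0564 (0.0451 to 0.0696) without, a ratio of 4.65 (3.54 to 6.135). With Prg4 it was at 0.0665 (0.0534 to 0.0818) and without Prg4 at 0.193 (0.163 to 0.227), a ratio of 0.344 (0.261 to 0.452). The direction was the same in both runs, with Scn7a ratios of 4.33 and 5.06 and Prg4 ratios of 0.393 and 0.253. At 2000 UMIs per cell, Sfrp2 was found in 4.50% of 778 fibroblasts with Scn7a (3.15 to 6.20) and 0.746% of 2279 without (0.435 to 1.19), against 10.1% and 2.42% without thinning. The antisense Gm26771 was at 0.112 (0.0857 to 0.143) with Scn7a and 0.0531 (0.0422 to 0.0660) without.

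Lrp4 went the same way as Sfrp2 with smaller differences, and Lgr4 and Frzb did not. Lrp4 was at 1.58 (1.47 to 1.68) with Scn7a and 0.916 (0.868 to 0.965) without, a ratio of 1.72 (1.58 to 1.87), and at 0.848 with Prg4 and 1.53 without, a ratio of 0.553 (0.509 to 0.601). Lgr4 was lower with Scn7a, at 0.605 (0.543 to 0.673) against 1.07 (1.02 to 1.12), a ratio of 0.565 (0.502 to 0.635), and did not differ beyond its interval with Prg4, at a ratio of 1.07 (0.976 to 1.18). Frzb had a lower level with Scn7a, at 0.862 against 1.19, a ratio of 0.722 (0.652 to 0.799). That ratio was 0.722 in the first run and 0.850 in the second, where the interval of 0.603 to 1.19 spans 1. At 2000 UMIs per cell, the share of fibroblasts with a Frzb UMI hardly differed, at 16.2% with Scn7a (13.7 to 19.0) and 16.7% without (15.2 to 18.3). Frzb was higher with Prg4, at 1.33 (1.27 to 1.39) against 0.701 (0.643 to 0.764). Its ratio for Prg4 was 1.90 (1.72 to 2.09) in all cells, 1.95 in the first run and 1.24 in the second, where the interval of 0.904 to 1.70 spans 1. The ratios of Fzd5, Fzd7 and Bcl9 lay between 0.866 and 1.39 in the 2 splits, and of these 6 intervals only that of Bcl9 with Scn7a (0.763 to 0.981) did not span 1. Cdh19 was at 1.31 with Scn7a and 0.675 without, and its part in the differences was not tested.

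**Figure D2:**
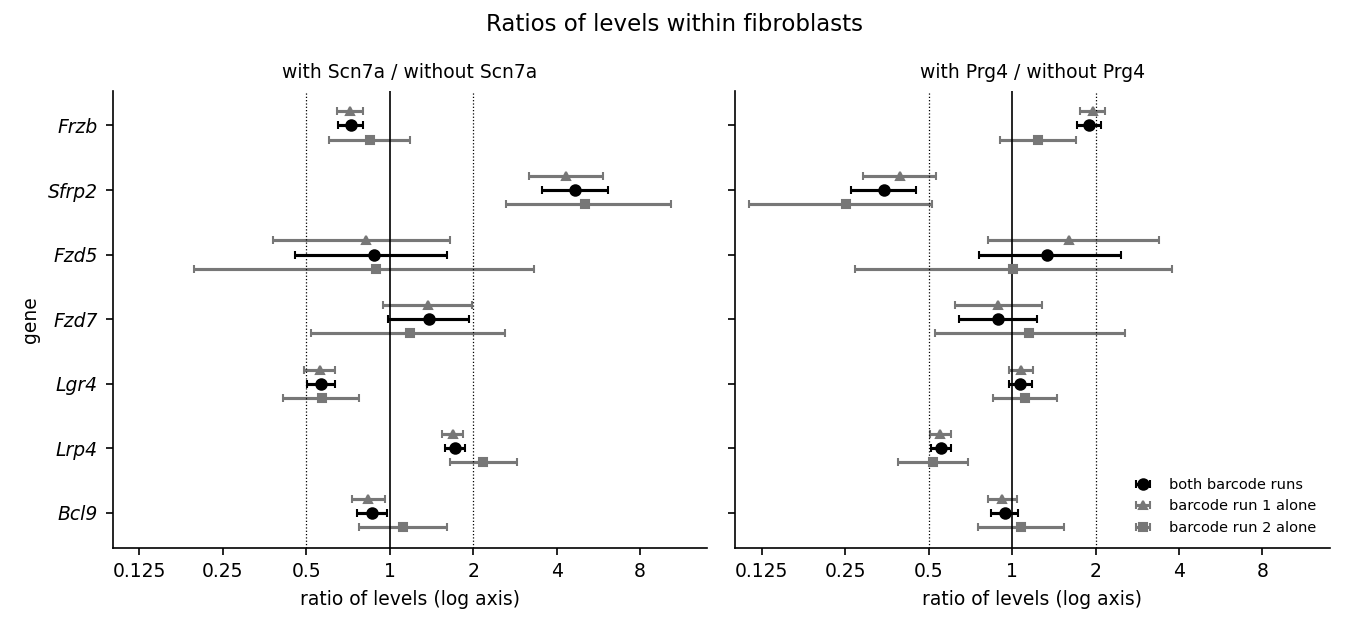
Ratios of levels (log axis) of the 7 genes between fibroblasts with and without a UMI of Scn7a (left) and of Prg4 (right), with 95% exact intervals. Circles are all cells, triangles and squares the first and second barcode run, and dotted lines mark 2-fold. Sfrp2 lies above 2 on the left (4.65) and below the inverse of 2 on the right (0.344) in both runs.

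The 2 splits are not independent, since 277 fibroblasts had UMIs of both genes, 514 of Scn7a alone, 1662 of Prg4 alone and 696 of neither. Sfrp2 was at 0.328 (0.271 to 0.393) in cells with Scn7a alone, 0.152 (0.104 to 0.214) in cells with both, 0.0730 (0.0489 to 0.105) in cells with neither and 0.0505 (0.0383 to 0.0655) in cells with Prg4 alone. Lrp4 was also highest with Scn7a alone and lowest with Prg4 alone, at 1.86 (1.72 to 2.003) and 0.799 (0.748 to 0.853), and was 1.10 (0.967 to 1.26) with both and 1.25 (1.14 to 1.36) with neither. Cells with Scn7a alone had 6.49 times the Sfrp2 level (4.68 to 9.07) and 2.32 times the Lrp4 level (2.10 to 2.57) of cells with Prg4 alone.

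Frzb was highest in the 2 groups with Prg4, at 1.34 (1.27 to 1.41) with Prg4 alone and 1.28 (1.13 to 1.44) with both, against 0.780 (0.696 to 0.872) with neither and 0.613 (0.534 to 0.700) with Scn7a alone. Lgr4 divided the cells the other way, with 0.616 (0.537 to 0.703) and 0.588 (0.489 to 0.701) in the groups with Scn7a, alone and together with Prg4, against 1.04 (0.981 to 1.10) with Prg4 alone and 1.16 (1.06 to 1.27) with neither. With the barcode runs pooled, Frzb levels thus went with the presence of Prg4 and Lgr4 levels with the absence of Scn7a. Lrp4 differed along both genes. For Sfrp2 the intervals of the 2 groups without Scn7a overlapped. The level of Frzb with Scn7a alone was 0.458 times that with Prg4 alone (0.395 to 0.528). These groups were not divided by run. For Frzb, the rule was not seen in the second run alone, where the ratio for Prg4 was 1.24 (0.904 to 1.70). Without thinning, a Frzb UMI was found there in 32.3% of fibroblasts with Prg4 and 32.6% without, against 39.9% and 22.8% in the first run. Median depths with and without Prg4 were 7843 and 7204 UMIs in the second run and 6250 and 5516 in the first. At 2000 UMIs per cell, with the runs pooled, the shares were 19.2% and 12.3%. The Lgr4 ratio for Scn7a was 0.569 (0.412 to 0.775) in the second run.

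**Figure D3:**
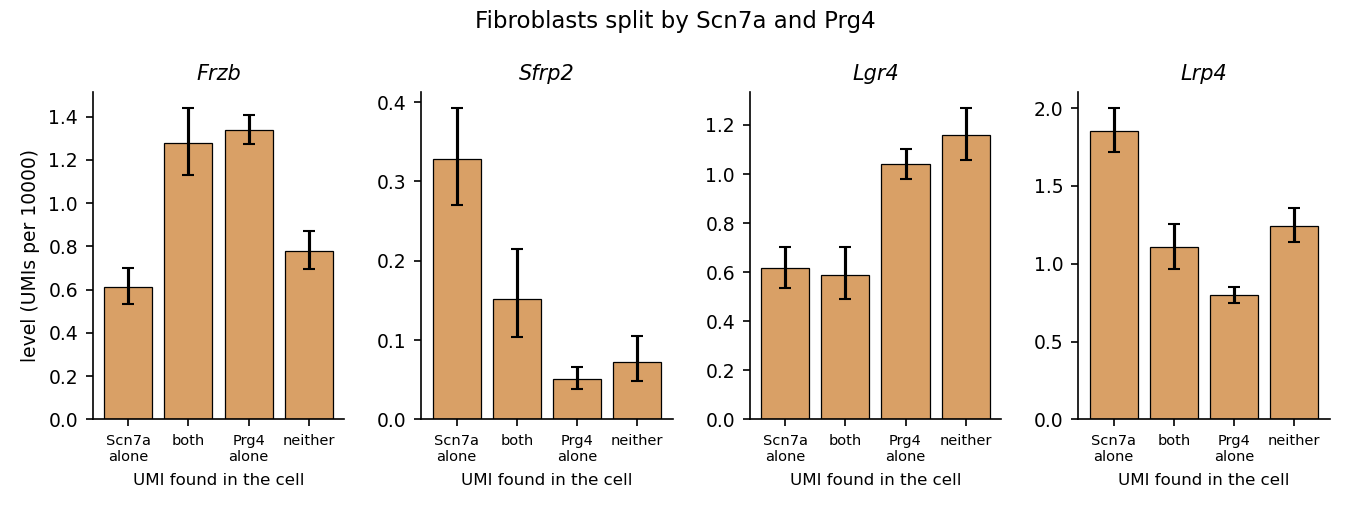
Levels (UMIs per 10000) of Frzb, Sfrp2, Lgr4 and Lrp4 in fibroblasts with a UMI of Scn7a alone (514 cells), both Scn7a and Prg4 (277), Prg4 alone (1662) or neither (696). Bars are levels and lines 95% exact Poisson intervals, and each gene has its own axis. The pair of bars with Prg4 is the higher one for Frzb (1.28 and 1.34), and the pair with Scn7a the lower one for Lgr4 (0.616 and 0.588).

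Endothelial cells were also not alike. The cells were clustered without the 7 genes, the other Wnt genes, Scn7a, Prg4 and Ptprc among the genes used, which gave 11 clusters. The 3 largest of the clusters with Egfl7 were cluster 1 (4170 cells, led by Tmem163, Gm13601 and Nppc), cluster 3 (3472 cells, led by Kif26b, Ptprt and Cacna1e and with Prox1 among its leading genes) and cluster 4 (2230 cells, led by Gm17234, Fmo2 and Frmd5 and with the adhesion gene Selp). In cluster 4, Col3a1 was found in 44.9% of cells, against 7.72% in cluster 1 and 6.05% in cluster 3. The 2 clusters with the fibroblast genes were cluster 2 (3923 cells, 70.0% with Prg4) and cluster 5 (900 cells, 76.6% with Scn7a).

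Lrp4 was at 0.0437 (0.0360 to 0.0525) in cluster 1, 0.124 (0.108 to 0.141) in cluster 3 and 0.510 (0.470 to 0.553) in cluster 4, so cluster 4 was at 11.7 times cluster 1 (9.54 to 14.4) and 4.11 times cluster 3 (3.52 to 4.82). Lgr4 had the same order, at 0.289 (0.268 to 0.310), 0.400 (0.371 to 0.431) and 0.872 (0.819 to 0.927), and its level in cluster 4 was above that in the fibroblast cluster 5, at 0.412 (0.363 to 0.467). Bcl9 followed this order as well, at 0.267, 0.425 and 0.563. In the second barcode run, however, its levels in clusters 1 and 3 hardly differed, at 0.267 (0.210 to 0.335) and 0.275 (0.226 to 0.332). Fzd5 was at 0.0321, 0.0168 and 0.0711 in clusters 1, 3 and 4, with cluster 4 at 4.24 times cluster 3 (2.76 to 6.67). Fzd7 was highest of the 3 in cluster 1, at 0.0866 (0.0756 to 0.0987), and cluster 4 was at 0.713 times that level (0.539 to 0.934). The inhibitors were low in all 3, with Frzb at 0.0131 to 0.0189 and Sfrp2 at 0.00270 to 0.00600, from 7 Sfrp2 UMIs in each.

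The order of clusters 1, 3 and 4 held in both barcode runs for Lrp4 (0.0429, 0.133 and 0.476 in the first run, 0.0499, 0.0909 and 0.653 in the second) and for Lgr4 (0.278, 0.385 and 0.863, then 0.374, 0.454 and 0.906). In the second run, however, the intervals of clusters 1 and 3 overlapped for both genes. They were 0.0273 to 0.0837 and 0.0636 to 0.126 for Lrp4, and 0.306 to 0.453 and 0.390 to 0.526 for Lgr4. Splits of the endothelial cells by Selp and by Tmem163 went in the same direction. They are not a separate check, since these genes are among the leading genes of clusters 4 and 1. In the 1130 endothelial cells with a UMI of Selp, Lrp4 was at 0.358 (0.316 to 0.403) against 0.152 (0.141 to 0.164) in the others, Lgr4 at 0.660 against 0.417 and Fzd5 at 0.0643 against 0.0326. In the 765 endothelial cells with a UMI of Tmem163, Lrp4 was at 0.0519 (0.0353 to 0.0737) against 0.197 (0.184 to 0.210) and Lgr4 at 0.229 against 0.479. Cells with Prox1 differed less from those without, with a ratio of 1.31 for Lgr4 (1.20 to 1.42) and 0.952 for Lrp4 (0.838 to 1.08).

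**Figure D4:**
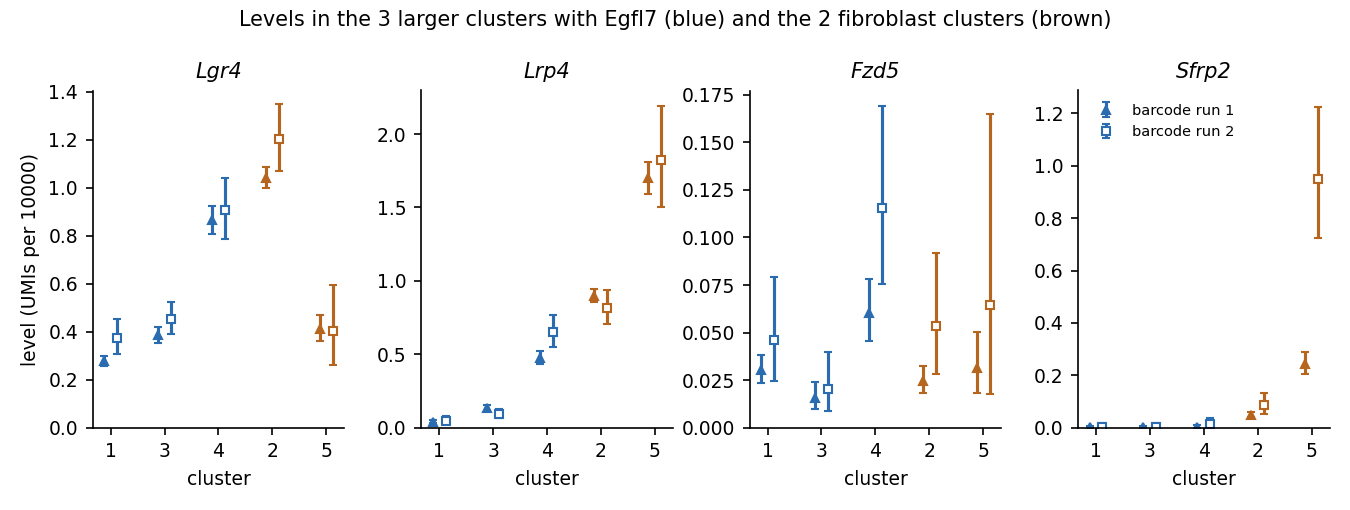
Levels (UMIs per 10000) of Lgr4, Lrp4, Fzd5 and Sfrp2 in the 3 larger clusters with Egfl7 (1, 3 and 4, blue) and the 2 fibroblast clusters (2 and 5, brown), for the first (triangles) and second barcode run (squares) with 95% exact Poisson intervals. Lgr4 and Lrp4 increase from cluster 1 to 3 to 4 in both runs, with overlapping intervals of clusters 1 and 3 in the second. Sfrp2 in cluster 5 is at 0.244 in the first run and 0.95 in the second.

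The fibroblast clusters, formed without these genes, differed in the genes that also differed in the splits by Scn7a and Prg4. Of these, Lgr4 did not differ beyond its interval in the split by Prg4. The clusters are not a separate check, since they come from the same matrix and differ in Scn7a and Prg4 themselves. Sfrp2 was at 0.0533 (0.0443 to 0.0637) in cluster 2 and 0.316 (0.273 to 0.365) in cluster 5, which was 5.93 times as high (4.70 to 7.51). Lrp4 was at 0.891 and 1.71, Lgr4 at 1.06 and 0.412, and Frzb at 1.16 and 0.836. Lgr4 in cluster 2 was thus 2.57 times that in cluster 5 (2.25 to 2.94), past the threshold that the split by Scn7a did not reach. For Frzb, the intervals of clusters 2 and 5 overlapped in the second run, at 0.758 (0.653 to 0.876) and 0.693 (0.501 to 0.933). The level of Sfrp2 in cluster 5 rested in part on 70 cells of the second run, with 59 of its 191 UMIs, where it was at 0.95 (0.723 to 1.23), against 0.244 (0.204 to 0.289) in the first.

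In the smaller clusters the levels rest on few UMIs. Cluster 7, led by Kynu, Plcb2 and Ifi206, held 608 cells with Bcl9 at 0.544 and Frzb at 0.128, and cluster 6 (624 cells with Egfl7, a median of 8983.5 UMIs and 43.1% from the second run) had Fzd7 at 0.140. Cluster 9, with 114 cells led by Pax3, Cdk15 and Gpr158 and with Mlph among its leading genes, had 0 UMIs of Lrp4 and of Sfrp2, with an upper limit of the exact interval at 0.0666 (3 UMIs would be a level of 0.0541), and Fzd7 at 0.180 from 10 UMIs. Cluster 8, with 237 cells that held fibroblast genes and Egfl7 and a median of 10260 UMIs, had Frzb at 0.603 and Lgr4 at 0.747. Cluster 10, with 63 cells led by Bub1, and cluster 11, in which 42 cells had 748 UMIs at the median, had at most 18 UMIs of any of the 7 genes.

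Other genes of the pathway were taken from a list of 41 symbols, of which 26 have a row in the matrix. The matrix holds genes of chromosomes 1, 2 and 3, so genes of the pathway on other chromosomes could not be seen. Between fibroblasts and endothelial cells, 23 had 50 or more UMIs, and 9 of these were past 2-fold higher in fibroblasts and 4 lower, beside 475 higher and 398 lower of all 2605 genes (33.5% past 2-fold). Without the 7 genes above, 5 of 16 were higher and 4 lower, with a median ratio of 1.04, the same as over all genes. Among those higher were Ccn5, a matricellular protein induced by Wnt, at 0.604 against 0.0136 (44.5-fold, 35.1 to 57.1), the heparan sulfate proteoglycan Gpc1 at 0.0627 against 0.00837 (7.49-fold, 5.30 to 10.8), the planar polarity cadherin Fat4 at 1.43 against 0.247 (5.80-fold, 5.44 to 6.19), Lrp1b (2.80-fold, 1.83 to 4.296) and the phospholipase Plcb1 (2.13-fold, 2.10 to 2.17). Lower in fibroblasts were Sox17, a transcription factor of endothelial cells, at 0.00430 against 0.0909, Kif26b, a kinesin that acts in noncanonical Wnt signalling, at 0.371 against 2.69, the calcium-dependent factor Nfatc2 at 0.0937 against 0.485 and the ubiquitin ligase subunit Fbxw7 at 0.966 against 1.96. Sox17 is also in the list of endothelial markers. By role, genes of the list with 50 or more UMIs were counted. Both secreted inhibitors and 4 of 6 receptors and coreceptors were higher in fibroblasts and none of these was lower. Of 3 planar polarity genes and of 3 genes of the calcium branch, 1 was higher and 1 lower, and 1 of 5 transcription genes and 1 of 3 genes of degradation and kinases were lower. With so few genes per role, these counts are not compared with each other. The only ligands of the list with a row, Wnt6 and Wnt10a, were nearly undetected. There were 5 UMIs of Wnt6 in fibroblasts, 2 in endothelial cells and 0 of Wnt10a in either group.

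**Figure D5:**
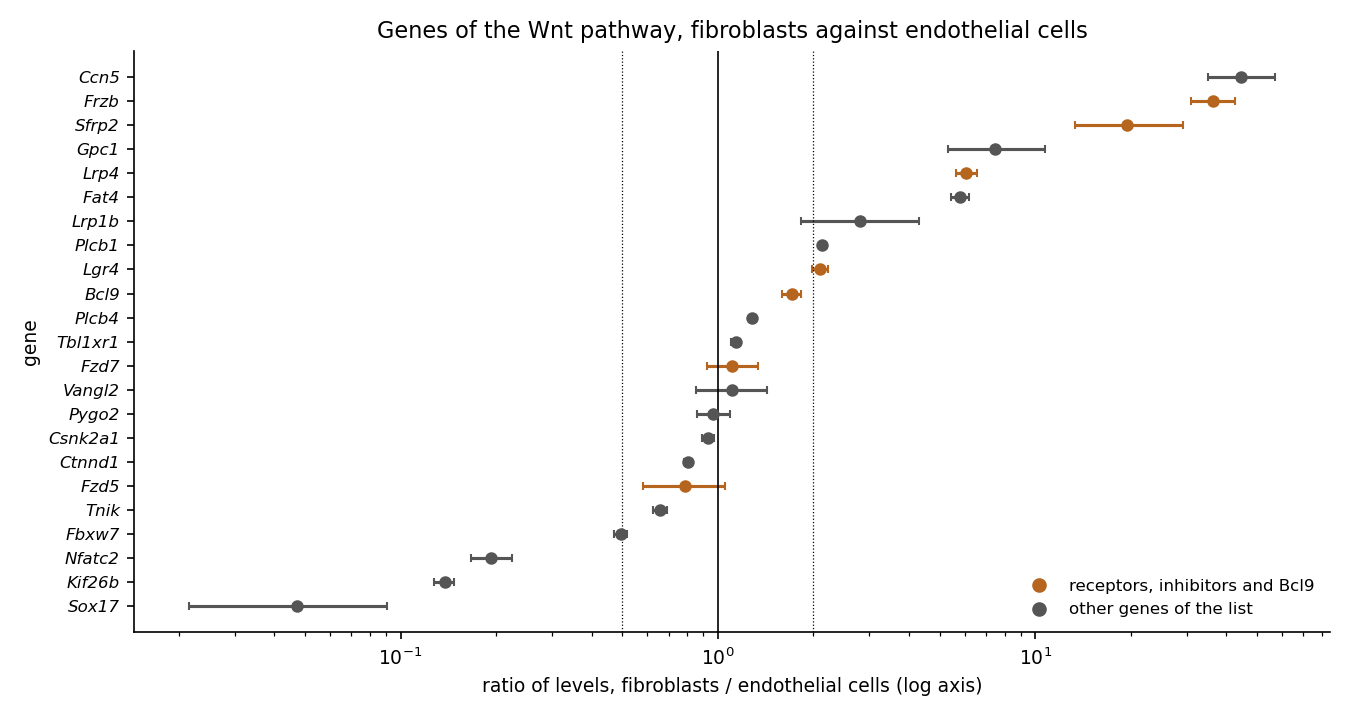
Ratio of levels of fibroblasts to endothelial cells (log axis) for the 23 genes of the Wnt pathway with 50 or more UMIs in the 2 groups, with 95% exact intervals. Brown points are the 7 genes described first, grey points the others, and dotted lines mark 2-fold. The ratios run from 0.0473 (Sox17) to 44.5 (Ccn5), with Frzb and Sfrp2 next below Ccn5.

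Against Ptprc cells, 12 of 22 genes of the list were past 2-fold higher in fibroblasts and 2 were lower, beside 551 and 405 of all 2313 genes (41.3%). The 2 lower genes were Nfatc2, at 0.0371 times, and Fbxw7, at 0.432 times. Of the genes outside the 7, those higher with the largest ratios were Ccn5 (12.2-fold), Fat4 (12.01-fold), Plcb1 (7.61-fold), Gpc1 (7.61-fold, 2.07 to 63.5, from 2 UMIs in Ptprc cells), Plcb4 (7.104-fold), Lrp1b (5.69-fold, 0.975 to 229.4, from 1 UMI in Ptprc cells) and the planar polarity gene Vangl2 (5.11-fold). Of endothelial cells against Ptprc cells, 7 of 20 were higher and 3 lower, beside 516 and 454 of 2476 genes (39.2%), with Kif26b 14.9-fold higher (11.1 to 20.5), Sox17 11.04-fold (3.04 to 91.4, from 2 UMIs in Ptprc cells), Plcb4 5.55-fold, Vangl2 4.63-fold, Plcb1 3.57-fold and Fat4 2.07-fold, and with Frzb, Nfatc2 (0.192 times) and Ccn5 (0.275 times) lower. In the fibroblast splits, 3 of 21 genes were past 2-fold in each, beside 8.67% (Scn7a) and 5.61% (Prg4) of 2191 genes. Besides Sfrp2 these were Ccn5, at 1.39 with Scn7a and 0.314 without (4.41-fold, 3.93 to 4.96) and at 0.399 with Prg4 and 0.967 without, and Gpc1, at 0.0195 with Scn7a and 0.0787 without and at 0.0821 with Prg4 and 0.0279 without.

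For each of the 7 genes, the 3 genes of the matrix with the most similar pattern were taken. Similarity was Pearson's r of log2(level + 0.05) over the 10 clusters of 50 or more cells. These r are descriptions over 10 points from 1 matrix that differ in depth. Frzb was most like Sec16b (r = 0.990), Prrx1 (0.990), which also served to find the fibroblasts, and Dnm3os (0.986). Sfrp2 was most like Aox3 (0.986), Ccn5 (0.976) and Angpt4 (0.976). Lrp4 was most like Gm32569 (0.955), Il1r1 (0.954) and Ism1 (0.944), and Lgr4 like Stk39 (0.954), Nr6a1os (0.879) and Napb (0.858). Bcl9 was most like Phf21a (0.939), Usp40 (0.938) and 5430405H02Rik (0.936), Fzd7 like Stmn3 (0.940), Cops2 (0.922) and Insig2 (0.921), and Fzd5 like Chp1 (0.848), Endog (0.837) and Unc50 (0.835). The genes nearest to Frzb and to Sfrp2 were thus different genes.

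Whether the genes were found in the same fibroblasts was described for the 15 pairs of the 6 genes with 100 or more UMIs there, in 3057 fibroblasts thinned to 2000 UMIs. Frzb was found in 506 of them, Sfrp2 in 52 and both in 9, against 8.61 cells from the product of the 2 shares. By barcode run, both were found in 5 cells against 7.25 in the first and in 4 against 1.20 in the second. The product lay within the interval in each run, near its lower end in the second (0.448%, interval 0.407 to 3.76%). For Frzb with Lrp4, both were found in 87 cells against 82.8, and for Frzb with Lgr4 in 68 against 68.2. Sfrp2 and Lrp4 shared 10 cells against 8.51, and Sfrp2 and Lgr4 5 cells against 7.01. Lgr4 and Lrp4 were found together in 60 cells against 67.4. Bcl9 shared 50 cells with Frzb (55.6 from the product), 8 with Sfrp2 (5.72), 41 with Lgr4 (45.3), 59 with Lrp4 (55.0) and 3 with Fzd7 (4.18). Fzd7 shared 6 cells with Frzb (6.29), 1 with Sfrp2 (0.646), 7 with Lrp4 (6.22) and 11 with Lgr4 (5.12). In 14 of the 15 pairs the product lay within the exact binomial interval of the observed share, the exception being Fzd7 with Lgr4, at 0.360% (0.180 to 0.643) against 0.168%. By barcode run, that pair had 8 cells against 3.98 in the first and 3 against 1.25 in the second. Within each run the interval held the product, at 0.124 to 0.565% against 0.143% and at 0.231 to 3.22% against 0.464%. With 15 pairs described, this 1 exception is not read further. No excess or shortage of cells with both inhibitors was detectable at this depth, from only 9 such cells.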

How the data were processed

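The deposited matrix holds natural log values that the authors made from single-cell or single-nucleus libraries: LogNormalize in Seurat, after Cell Ranger 7.1.0 with mm10 (submitters' processing notes). Each value is ln(1 + x), with x the UMIs of a gene per 10000 in its cell, and whole UMIs were recovered from 100% of values (tolerance 0.02). Of 3265 listed genes, 1 with 11958 empty values was left out. The genes lie on chromosomes 1, 2 and 3 and hold 15.7% of the UMIs of a cell (median). The cells carry no sample, so no test was made, and no doublet caller was run. Clusters were made in scanpy 1.11.5 (2000 variable genes, 50 components, 15 neighbours, resolution 0.5), and intervals in scipy 1.17.1. Cells with under 2000 UMIs were left out of thinned shares (92 fibroblasts, 563 endothelial cells, 54 Ptprc cells). The steps were tested on simulated data. All 7 genes were described in every comparison, and genes of the Wnt list were named where they had 50 UMIs and passed 2-fold, at most 8 per comparison by size of the ratio. Fbxw7, outside this rule, was named after its values were seen. The genes, groups and lists were chosen with earlier results of these data known. Alternatives were single barcode runs, depth ranges, thinned groups, equal weight of cells, a pseudocount of 0.05, a 1.5-fold threshold, other rules for the groups and no minimum of UMIs. One gene of the marker lists is not reported here.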

Additional observations from a re-analysis of the deposited data

How the results depend on the processing

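Of 350 ratios of single genes under the alternatives, 297 stayed within the counting interval of the ratio. On the other side of 1 lay 22 ratios, in 14 of the 35 pairs of a gene and a comparison. Of these, 1 had been past 2-fold: Sfrp2 in endothelial cells against Ptprc cells, at 1.01 in the second barcode run from 1 UMI in Ptprc cells. The others had not, among them Lrp4 in endothelial cells against Ptprc cells (down to 0.734) and Bcl9 there (up to 1.33). Of 55 counts of genes past 2-fold, 48 stayed within 1.5 times and 7 moved. The count for endothelial cells against Ptprc cells, 3, became 1 with a pseudocount of 0.05. For the split by Scn7a, 1 became 2 in the second barcode run, 2 with groups set after thinning, 2 with all 3 fibroblast genes required and 3 at a threshold of 1.5. For the split by Prg4, 1 became 3 at a threshold of 1.5 and 3 with all 3 fibroblast genes required. The threshold changes the count by construction, and for the others the cause was not tested. The ratio of Lgr4 in fibroblasts to endothelial cells ran from 1.78 to 2.18 and was past 2-fold in 7 of 10 alternatives. In endothelial cells against Ptprc cells, Lgr4 ran from 1.33 to 3.48, past 2-fold in 7 of 11. The ratio of Frzb in fibroblasts to endothelial cells ran from 14.3 to 71.4, that of Sfrp2 from 2.90 to 27.9 and that of Lrp4 from 4.96 to 6.88, all past 2-fold. The ratio of Sfrp2 with Scn7a to without ran from 2.93 to 5.33. Without the minimum of 50 UMIs, 15.8% and 12.3% of all genes were past 2-fold in the splits by Scn7a and Prg4. No paired analysis was possible because no barcode is tied to a replicate, and for the same reason no library could be left out. Depth limits Fzd5 in all groups and Sfrp2 in Ptprc cells, where 8 UMIs were found.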
